A study of Mus musculus with 49 samples.

Results

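Adipocytes are the fat-storing cells of the body, and the 10 genes described here are ones by which they store fat, release it and signal to other tissues. The genes are Adipoq, Retn, Lep, Fabp4, Lpl, Scd1, Pparg, Lipe, Slc2a4 and Cidea, chosen by symbol. All 10 were on the array, among 8251 genes measured. Each is represented by its probe set (the group of array probes that together report a transcript) with the highest mean over the 49 arrays. The arrays follow arthritis caused by K/BxN serum, which is rich in autoantibodies and inflames the joints of healthy recipients. All recipients were male B6 mice of 6 weeks, no other allele or agent is named for them, and days count from their first dose of serum. Whole ankle was profiled at day 0 (4 arrays), day 1 (2), day 3 (3), day 7 (4), day 12 (3) and day 18 (3). Synovial fluid cells were profiled at day 3 (3), day 7 (4), day 12 (3) and day 18 (3), and peripheral blood leukocytes at days 0, 1, 3, 7 and 12 (3 each) and day 18 (2).

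White adipocytes take up fatty acids from circulating lipoproteins, store them as triglyceride in a large lipid droplet and release them by lipolysis. The nuclear receptor PPARγ drives their differentiation and keeps many of their lipid genes active. They also secrete hormones, the adipokines, and whole ankle can hold fat in the joint fat pad, the bone marrow and under the skin. Adipoq encodes adiponectin, Retn resistin and Lep leptin, the adipokines described here. Fabp4 encodes a fatty acid carrier, Lpl the lipase that frees fatty acids from lipoproteins, Scd1 a desaturase that makes monounsaturated fatty acids, and Lipe the hormone-sensitive lipase. Pparg encodes PPARγ, Slc2a4 the insulin-responsive glucose transporter, and Cidea a lipid droplet protein of brown fat.

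Promoters are shown for Retn and Lipe, which were lower from day 7 on, and for Adipoq, which was not called at any ankle day in the main fit. Each is the 250 bases before the annotated start, in the gene's orientation, from RefSeq on build GRCm38.p6. Capitals mark matches on either strand to any of 5 short motifs.
Retn, chr8:3655520-3655769, plus strand: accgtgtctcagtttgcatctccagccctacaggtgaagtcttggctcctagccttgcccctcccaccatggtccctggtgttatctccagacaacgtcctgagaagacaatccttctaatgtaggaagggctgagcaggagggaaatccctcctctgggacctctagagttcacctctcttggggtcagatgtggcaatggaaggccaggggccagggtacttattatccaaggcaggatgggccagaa
Lipe, chr7:25395988-25396237, minus strand, the first of 2 annotated starts: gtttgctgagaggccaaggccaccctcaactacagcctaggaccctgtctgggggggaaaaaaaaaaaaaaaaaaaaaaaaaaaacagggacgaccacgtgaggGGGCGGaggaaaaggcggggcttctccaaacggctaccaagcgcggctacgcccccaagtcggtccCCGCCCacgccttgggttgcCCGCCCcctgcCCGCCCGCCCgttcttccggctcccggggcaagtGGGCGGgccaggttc
Adipoq, chr16:23146286-23146535, plus strand: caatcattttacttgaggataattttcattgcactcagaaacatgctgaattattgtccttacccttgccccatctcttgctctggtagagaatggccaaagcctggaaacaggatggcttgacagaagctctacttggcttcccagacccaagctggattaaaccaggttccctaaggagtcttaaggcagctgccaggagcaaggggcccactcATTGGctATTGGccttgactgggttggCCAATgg
The Lipe window shown held 6 matches to GGGCGG, the Sp1 type site, of which 2 overlap each other. The window of the second Lipe start, not shown, held no match to any of the motifs. The Adipoq window held 3 matches to CCAAT. No motif matched in the Retn window. Of 32851 windows of this length, 32.7% held the Sp1 type site and 33.8% the CCAAT box. The TATA box, searched as TATAAA, was in 12.4% of them. The nuclear receptor site, searched as AGGTCA, was in 14%. The C/EBP type site, searched as TTGCNNAA, was in 9.56%. A match describes letters only and says nothing of binding. Promoter windows were used for 5 of the 10 genes.

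Values are log2 of the deposited intensity. The 95th percentile of 34 negative control probe sets was 6.85, and a group whose mean lay under it was taken as not above background. In ankle, 8 of the 10 genes had a mean above this level at day 0 and 5 at day 18. In fluid 3 did at every day (Lep, Lpl and Scd1) and in blood 2 (Lep and Scd1). A second Lep probe set had similar medians in every tissue, 8.02 in ankle, 7.86 in fluid and 8.16 in blood. Whether the Lep signal is Lep transcript in each tissue was not tested, so 6.85 may not serve as background for Lep. The folds given for Lep are folds of signal. Pparg and Cidea lay below 6.85 in every group, so their differences are differences of signal near background. The ankle label was borne out by Acta1, the actin of skeletal muscle, at 9.86 to 12.94 in ankle and at most 5.02 in fluid and blood. In whole ankle, fewer cells of a type and less RNA per cell cannot be told apart.

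**Figure D1:**
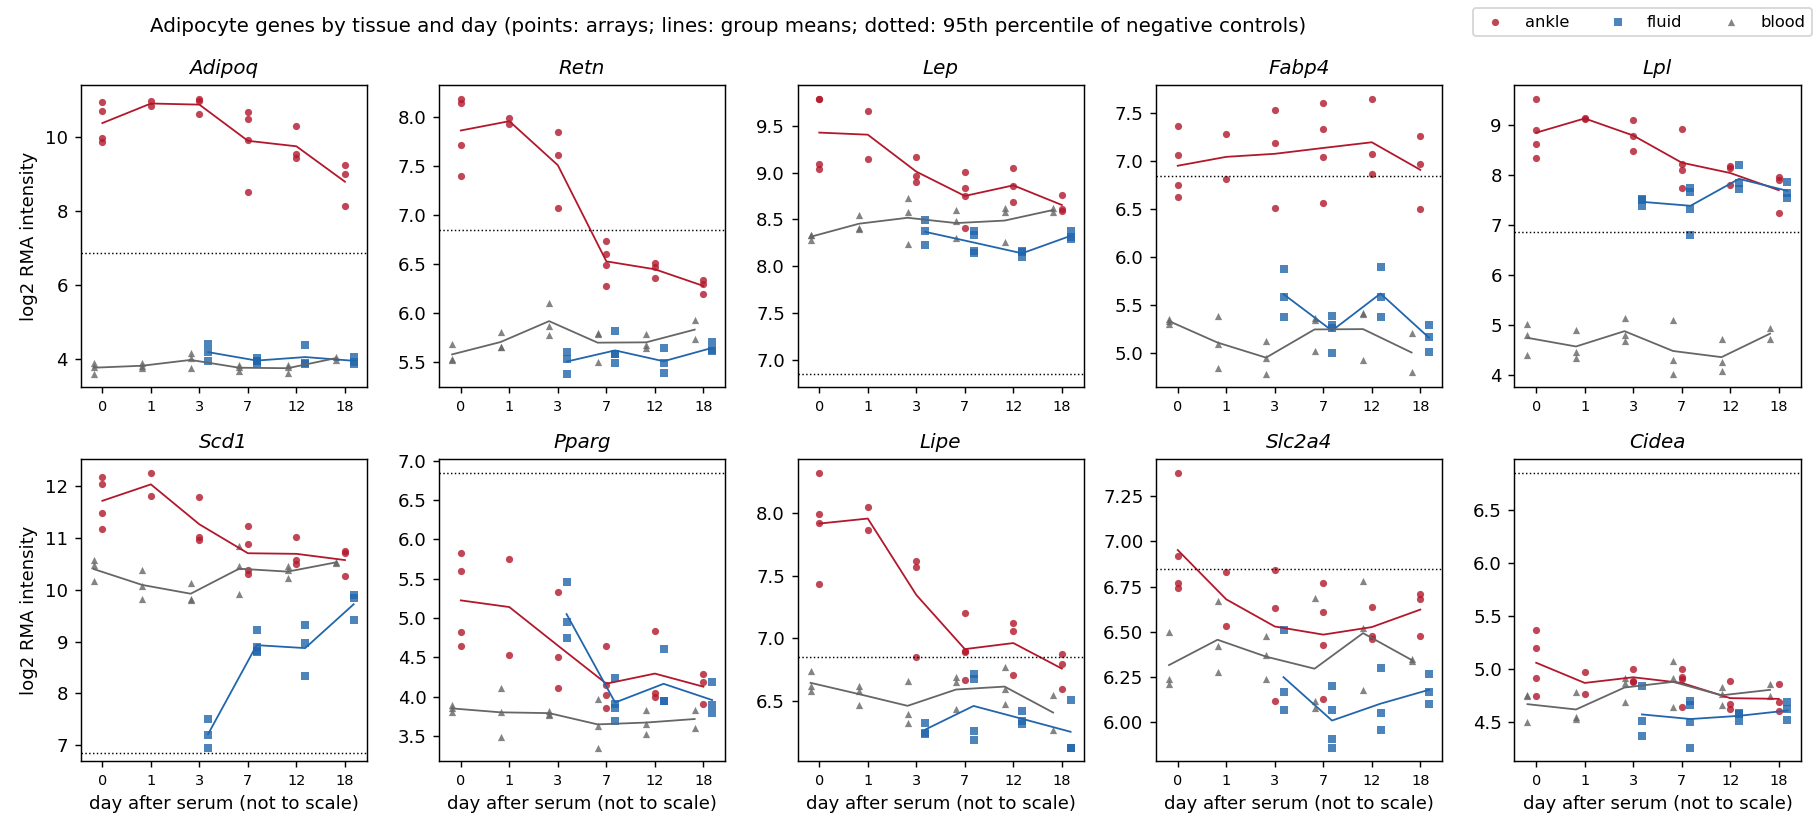
Log2 RMA intensity (vertical axis) of the 10 adipocyte genes by day after serum (horizontal axis, not to scale) in ankle, fluid and blood, where points are arrays, lines join group means and the dotted line is the 95th percentile of the negative controls, 6.85. Ankle Retn lies under the dotted line from day 7 on, and Scd1 in fluid goes from a mean of 7.21 at day 3 to 9.72 at day 18.

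In ankle, 4 of the 10 genes were lower at day 7 than at day 0 (Retn, Lipe, Scd1 and Lep), 2 at day 12 (Retn and Lipe) and 4 at day 18 (Retn, Lipe, Lpl and Scd1), and none was called higher. A call is a two-sided limma p, adjusted for all 8251 genes, under 0.05. Of all genes, 3.64% were called lower at day 7, 1.37% at day 12 and 0.885% at day 18. The median difference of the 10 genes was -0.64, -0.72 and -1.12, against 0.00, -0.03 and -0.00 over all genes. These comparisons share the 4 day 0 arrays. For ankle and fluid no label names separate animals for the replicates, and the p-values there reflect a spread between samples that could be technical.

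Single arrays moved these counts. At day 7 the count was 2 without replicate 3 of ankle day 0, or replicate 1 or 4 of ankle day 7. At day 12 it was 1 without replicate 3 of ankle day 0, or replicate 3 of ankle day 12. At day 18 it was 1 without replicate 3 of ankle day 18, and 2 without replicate 3 of ankle day 0, or replicate 1 or 2 of ankle day 18.

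Before day 7 no adipocyte gene was called. At day 1 limma called 0 of the 10 genes (0% of all genes lower), and 150 genes had an unadjusted p under 0.05. At day 3 it called 0 of the 10 (0.0485% of all genes lower), and 711 genes had such a p. At day 3 Lipe differed by -0.57 ± 0.21 (SE, adjusted p = 0.432) and Adipoq by 0.50 ± 0.42 (adjusted p = 0.898). For all 10 genes the arrays of days 1 and 3 overlapped those of day 0.

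Resistin, Retn, had the smallest adjusted p of the 10 genes at days 7, 12 and 18. Its ankle levels were 8.15, 7.72, 8.19 and 7.4 at day 0, 7.99 and 7.93 at day 1, and 7.61, 7.85 and 7.07 at day 3. They were 6.60, 6.49, 6.74 and 6.28 at day 7, 6.36, 6.47 and 6.51 at day 12, and 6.19, 6.30 and 6.34 at day 18. Every array from day 7 on lay below every earlier one. The difference from day 0 was -1.34 ± 0.18 at day 7 (adjusted p = 0.000149, 4 arrays against 4), -1.42 ± 0.19 at day 12 (adjusted p = 0.000317, 3 against 4) and -1.59 ± 0.19 at day 18 (adjusted p = 9.77e-05, 3 against 4). The later means lay under background, so Retn was at least 2.02-fold lower at each of these days, a bound reckoned from the day 0 mean to the background level. Retn was called in every refit tried, with adjusted p up to 0.00254 at day 7, 0.00796 at day 12 and 0.00157 at day 18. It lay at 5.38 to 5.82 in fluid and at 5.50 to 6.10 in blood, below every ankle array.

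Leptin, the satiety hormone of fat, was called at day 7 alone in the main fit. Lep stood at 9.79, 9.04, 9.79 and 9.09 at day 0 and at 8.41, 9.01, 8.83 and 8.75 at day 7, without overlap. It was lower by 0.67 ± 0.19, or 1.6-fold (adjusted p = 0.0416, 0.00163 to 0.212 over refits). That call was lost without replicate 1 or 3 of ankle day 0, or replicate 1, 3 or 4 of ankle day 7 (differences from -0.70 to -0.55, adjusted p from 0.0774 to 0.149). It was also lost with quantile normalization anew (-0.58, adjusted p = 0.137), with the mean of all probe sets (-0.38, adjusted p = 0.161) and with array weights (-0.55, adjusted p = 0.0529). The difference was -0.56 ± 0.21 at day 12 (adjusted p = 0.171) and -0.78 ± 0.21 at day 18 (adjusted p = 0.0646, 0.00181 to 0.222 over refits). At day 18 Lep was called in some refits and not in others. Among those that called it were array weights (-0.76, adjusted p = 0.00247) and the beta-actin covariate (-0.98, adjusted p = 0.0235). A second Lep probe set differed by -0.10, -0.11 and -0.14 at days 7, 12 and 18 (adjusted p = 0.828, 0.833 and 0.844). The main probe set read 8.24 to 8.73 in blood and 8.10 to 8.49 in fluid. Whether that signal is Lep transcript was not tested, so the 1.6-fold value is a fold of signal.

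Adiponectin, Adipoq, had its lowest ankle values at day 18. They were 10.68, 10.94, 9.97 and 9.86 at day 0, 10.82 and 10.96 at day 1, and 10.60, 10.96 and 11.02 at day 3. Later they were 9.90, 10.47, 10.67 and 8.50 at day 7, 9.41, 10.28 and 9.52 at day 12, and 9.22, 8.99 and 8.14 at day 18. Day 7 replicate 4 was the lowest of the day 7 arrays, though it did not stand apart by Dixon's criterion. The day 18 arrays lay below all those of day 0. Adipoq differed by -0.48 ± 0.39 at day 7 (adjusted p = 0.596), -0.63 ± 0.42 at day 12 (adjusted p = 0.533) and -1.58 ± 0.42, or 2.99-fold, at day 18 (adjusted p = 0.0619, 0.000455 to 0.376 over refits). From day 7 to day 18 it differed by -1.1 ± 0.42 (adjusted p = 0.735). In that comparison limma called 0 of the 10 genes, 0% of all genes were called lower, and 436 had an unadjusted p under 0.05.

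Among the enzymes of lipid handling, Lipe was called at days 7, 12 and 18. It stood at 8.32, 7.92, 7.99 and 7.43 at day 0, at 7.2, 6.89, 6.90 and 6.67 at day 7, at 7.06, 7.12 and 6.71 at day 12, and at 6.88, 6.80 and 6.60 at day 18. Every one of these later arrays was below every day 0 array, while the day 3 arrays, 7.62, 7.57 and 6.85, reached into the day 0 range. Lipe fell by 1.0 ± 0.20 at day 7 (2.01-fold, adjusted p = 0.00349), by 0.95 ± 0.21 at day 12 (1.94-fold, adjusted p = 0.0151) and by 1.16 ± 0.21 at day 18 (at least 2.08-fold, adjusted p = 0.00564). Its day 7 call held in every refit (adjusted p up to 0.0152). At day 12 the call was lost without replicate 3 of ankle day 0, or replicate 3 of ankle day 12 (differences from -0.93 to -0.83, adjusted p from 0.0516 to 0.104), in a range of 0.000198 to 0.104 over refits. At day 18 it was lost without replicate 3 of ankle day 18 (-1.08, adjusted p = 0.0543), in a range of 1.27e-05 to 0.0543.

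Scd1, the desaturase, stood at 11.48, 12.17, 12.05 and 11.17 at day 0 and 11.81 and 12.26 at day 1. It stood at 10.38, 11.24, 10.89 and 10.31 at day 7, at 11.02, 10.57 and 10.49 at day 12, and at 10.27, 10.74 and 10.71 at day 18. Day 7 replicate 2 overlapped the lowest day 0 array, and no array of days 12 and 18 did. Scd1 fell by 1.01 ± 0.27 at day 7 (2.02-fold, adjusted p = 0.0268, 0.00281 to 0.128 over refits) and by 1.15 ± 0.29 at day 18 (2.21-fold, adjusted p = 0.0459, 0.0026 to 0.263). At day 12 it differed by -1.02 ± 0.29 (adjusted p = 0.0617, 0.00395 to 0.274). The day 7 call was lost without replicate 2 or 3 of ankle day 0, or replicate 1 or 4 of ankle day 7 (differences from -0.90 to -0.86, adjusted p from 0.0668 to 0.0993), and also with array weights (-0.67, adjusted p = 0.114) and once the beta-actin difference was a covariate (-1.0, adjusted p = 0.128). The day 18 call was lost without replicate 1, 2 or 3 of ankle day 0, or replicate 1, 2 or 3 of ankle day 18 (differences from -1.23 to -0.99, adjusted p from 0.0531 to 0.234). It was also lost with median centring (-1.16, adjusted p = 0.063), with a floor at the 20th percentile (-1.15, adjusted p = 0.0761), with the mean of all probe sets (-0.66, adjusted p = 0.263) and once the beta-actin difference was a covariate (-1.14, adjusted p = 0.119).

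Its other probe sets did not all move alike. A second Scd1 probe set differed by -1.55, -1.49 and -1.53 at days 7, 12 and 18 (adjusted p = 0.0204, 0.0628 and 0.0733, over all probe sets). Another differed by -0.33, 0.73 and 0.69 (adjusted p = 0.663, 0.297 and 0.425), on the other side of 0 at the later days.

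Lpl, the lipoprotein lipase, stood at 8.61, 9.52, 8.89 and 8.34 at day 0, at 8.10, 8.22, 8.91 and 7.73 at day 7, at 8.14, 8.17 and 7.79 at day 12, and at 7.95, 7.89 and 7.23 at day 18. The arrays of days 12 and 18 lay below all those of day 0. Lpl differed by -0.60 ± 0.26 at day 7 (adjusted p = 0.212) and by -0.81 ± 0.28 at day 12 (adjusted p = 0.144). At day 18 it fell by 1.15 ± 0.28, or 2.22-fold (adjusted p = 0.0406, 0.005 to 0.296 over refits). This call was lost without replicate 2 or 3 of ankle day 0, or replicate 1, 2 or 3 of ankle day 18 (differences from -1.28 to -0.92, adjusted p from 0.0722 to 0.296). It was also lost with median centring (-1.16, adjusted p = 0.0546), with a floor at the 20th percentile (-1.15, adjusted p = 0.074) and once the beta-actin difference was a covariate (-1.13, adjusted p = 0.114). A second Lpl probe set, below background, differed by -0.66, -0.51 and -0.72 at days 7, 12 and 18 (adjusted p = 0.0247, 0.172 and 0.0501).

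Fabp4, the fatty acid carrier, was not called at any ankle day in the main fit. With array weights it was called higher at day 12 (0.60, adjusted p = 0.03, in a range of 0.03 to 0.994 over refits). Its levels were 6.63, 7.37, 7.06 and 6.75 at day 0, 7.04, 7.33, 7.61 and 6.57 at day 7, 6.87, 7.65 and 7.07 at day 12, and 6.97, 7.26 and 6.50 at day 18, and the arrays overlapped at each day. It differed by 0.18 ± 0.26 at day 7 (adjusted p = 0.811), by 0.24 ± 0.28 at day 12 (adjusted p = 0.759) and by -0.04 ± 0.28 at day 18 (adjusted p = 0.981). Whether its course differs from that of Retn or Lipe was not tested.

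The regulator Pparg stood at 4.65, 5.60, 5.83 and 4.82 at day 0, at 4.02, 4.64, 4.15 and 3.85 at day 7, at 4.84, 4.04 and 4.0 at day 12, and at 4.29, 4.18 and 3.91 at day 18, all below background. The arrays of days 7 and 18 lay below those of day 0, and day 12 replicate 1 overlapped them. Pparg differed by -1.06 ± 0.32 at day 7 (adjusted p = 0.053, 0.00363 to 0.352 over refits), by -0.93 ± 0.34 at day 12 (adjusted p = 0.169) and by -1.09 ± 0.34 at day 18 (adjusted p = 0.135). The glucose transporter Slc2a4 differed by -0.47 ± 0.18, -0.42 ± 0.19 and -0.32 ± 0.19 at these days (adjusted p = 0.141, 0.294 and 0.566). Cidea, at 4.61 to 5.37 in all ankle arrays, differed by -0.34 ± 0.14 at day 18 (adjusted p = 0.313).

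By overlap alone, 4 of the 10 genes had every day 7 array below every day 0 array (Retn, Lep, Pparg and Lipe), where 5.93% of all genes did. At day 12 there were 5 such genes (Retn, Lpl, Scd1, Lipe and Slc2a4), against 6.21% of all genes. At day 18 there were 8, all but Fabp4 and Cidea, against 8.56%.

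**Figure D2:**
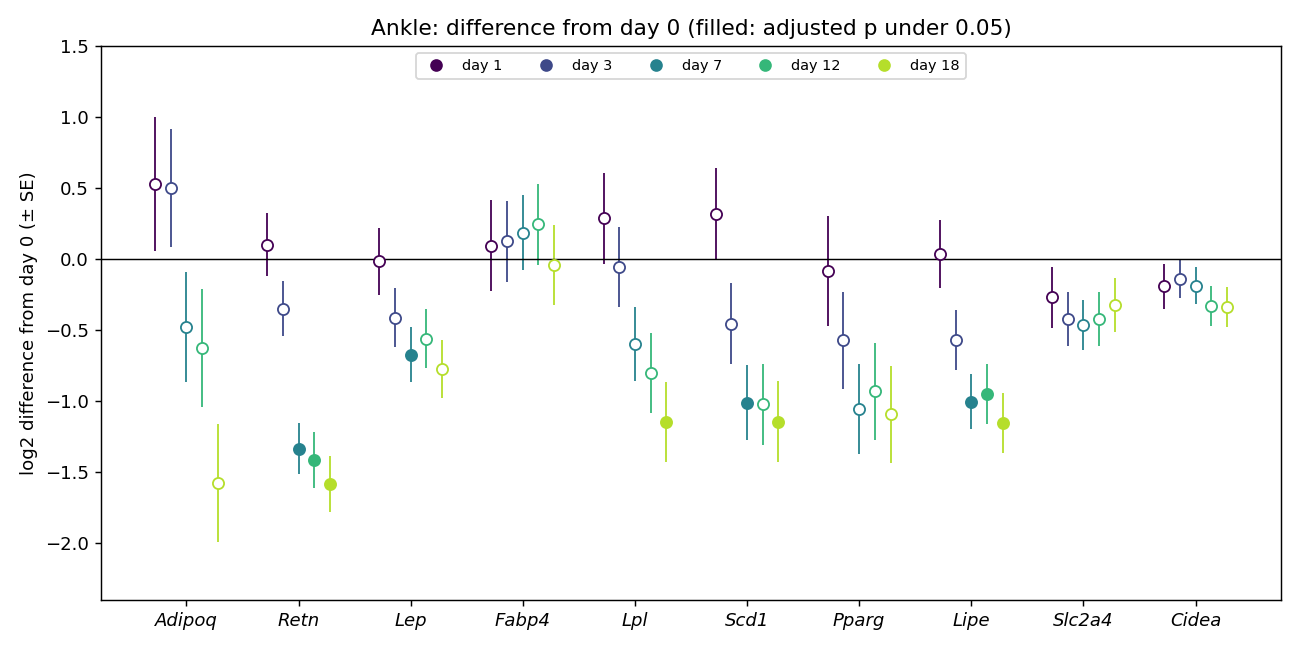
Difference from day 0 in ankle (vertical axis, log2, with standard errors from limma) for each adipocyte gene (horizontal axis) at days 1, 3, 7, 12 and 18, filled where the adjusted p was under 0.05. Retn is filled at -1.34, -1.42 and -1.59 and Lipe at -1.0, -0.95 and -1.16, while Fabp4 lies near 0 at every day.

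Other features of the ankle arrays moved alongside. Alb, a liver gene, was higher in 4 ankle arrays, the first replicates of days 0, 1, 7 and 12. It lay at 6.39 to 10.65 in them and at most at 5.19 in the other 15. These 4 were taken to hold liver RNA, though the day 1 array, at 6.39, was below background. Without them, Lep (-0.44, adjusted p = 0.212, 0.00163 to 0.212 over refits) and Scd1 (-0.98, adjusted p = 0.0688, 0.00281 to 0.128 over refits) were not called at day 7, and Pparg was (-1.2, adjusted p = 0.0215, 0.00363 to 0.352 over refits). Also without them, Lipe was not called at day 12 (-0.87, adjusted p = 0.052, 0.000198 to 0.104 over refits), and neither Lpl (-1.23, adjusted p = 0.0668, 0.005 to 0.296 over refits) nor Scd1 (-1.22, adjusted p = 0.0509, 0.0026 to 0.263 over refits) was at day 18. Between the 3' and 5' probe sets for beta-actin the log2 difference, which grows as RNA shortens, was 2.73 to 3.50 at day 0 and 3.15 to 4.25 later. Of 13 muscle markers 12 lay below day 0 at day 7 (median -0.73, 0 called), and their summed intensity was 12769 to 30967 at day 0, 5016 to 25281 at day 7 and 18811 to 21147 at day 18. The muscle count was 1 without replicate 1 of ankle day 0, or replicate 3 of ankle day 7. The 12 neutrophil markers summed to 1047 to 1271 at day 0, 3236 to 5384 at day 7 and 4007 to 5375 at day 18. At day 7, 4 of them were called higher (S100a8, S100a9, Mmp9 and Clec4d), where 3.09% of all genes were. Ltf and Ngp lay below day 0 then (-0.25 and -0.16), and the remaining markers 0.02 to 1.00 above it, none of them called. The 12 macrophage markers summed to 4783 to 7276 at day 0 and 6683 to 9597 at day 7, with 3 called higher (Mpeg1, Msr1 and Ctss). Csf1r, Marco, C1qa and C1qb lay below day 0 (-0.33, -0.03, -0.45 and -0.51, not called). The Ctss call was lost without replicate 1, 3 or 4 of ankle day 0, or replicate 2, 3 or 4 of ankle day 7 (adjusted p from 0.0711 to 0.135). It was also lost with the floor, median centring or the mean of all probe sets (adjusted p from 0.0508 to 0.0791). The part of these marker sums in the levels of the adipocyte genes was not tested.

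Related genes were read from lists by role. Of all genes, 3.64%, 1.37% and 0.885% were called lower at days 7, 12 and 18, and 3.09%, 1.87% and 1.13% higher. Of 10 measured genes of the lipid droplet and lipolysis, 5 were called lower at day 7, 5 at day 12 and 5 at day 18 (medians -0.82, -0.89 and -0.75). At day 7 these were Mgll, the monoglyceride lipase (-1.04 ± 0.18, adjusted p = 0.00162), Ces1d, a carboxylesterase (-1.17 ± 0.21, 0.00218), and Plin4, a droplet coat protein (-1.01 ± 0.23, 0.00993). The Plin4 means at days 0 and 7, 6.47 and 5.46, both lay below background. The others were Cavin1, a caveola protein (-1.09 ± 0.27, adjusted p = 0.0174), and Pnpla2, the lipase that opens lipolysis (-0.67 ± 0.18, 0.0323). The day 7 Cavin1 call was lost without replicate 4 of ankle day 0, or replicate 3 or 4 of ankle day 7 (differences from -1.06 to -0.91, adjusted p from 0.0526 to 0.0724), and also once the beta-actin difference was a covariate (-0.93, adjusted p = 0.151), in a range of 0.000721 to 0.151 over refits. The day 7 Pnpla2 call was lost without replicate 1, 3 or 4 of ankle day 0, or replicate 2, 3 or 4 of ankle day 7 (differences from -0.73 to -0.52, adjusted p from 0.0505 to 0.101), and also with quantile normalization anew (-0.60, adjusted p = 0.0643) and without the 4 arrays with liver RNA (-0.62, adjusted p = 0.061), in a range of 0.00114 to 0.101 over refits. At days 12 and 18 Cidec, a droplet protein, was called (-1.27 and -1.57, adjusted p = 0.0381 and 0.0146) and Cavin1 was not (-0.84 and -0.37, 0.134 and 0.714). Cidec had means of 5.93 at day 0, 4.66 at day 12 and 4.36 at day 18, all below background. Its day 12 call was lost without replicate 1, 2 or 3 of ankle day 0, or replicate 2 or 3 of ankle day 12 (differences from -1.39 to -1.04, adjusted p from 0.0551 to 0.181), and also once the beta-actin difference was a covariate, with a floor at the 20th percentile, with median centring, with quantile normalization anew and without the 4 arrays with liver RNA (adjusted p from 0.052 to 0.0752), in a range of 0.000172 to 0.181 over refits. Its day 18 call was lost without replicate 1 or 3 of ankle day 18 (differences from -1.57 to -1.41, adjusted p from 0.0608 to 0.125). The day 7 count was 3 without replicate 3 or 4 of ankle day 7. The day 12 count was 1 without replicate 2 or 3 of ankle day 12, and 3 without replicate 1 or 3 of ankle day 0. The day 18 count was 3 without replicate 1 or 3 of ankle day 18.

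Of 16 measured genes of fatty acid and triglyceride synthesis, 4 were called lower at day 7, 2 at day 12 and 3 at day 18 (medians -0.20, -0.15 and -0.20). The shares of all genes called lower were 3.64%, 1.37% and 0.885%. Fasn, the fatty acid synthase, fell by 0.95 ± 0.21, or 1.94-fold, at day 7 (adjusted p = 0.00807) and differed by -0.80 ± 0.22 at day 18 (0.0781). Thrsp, a lipogenic protein, fell by 1.65 ± 0.38, or 3.15-fold, at day 7 (adjusted p = 0.0119) and by 1.98 ± 0.41, or 3.94-fold, at day 18 (0.0145). The day 7 Thrsp call was lost with array weights (-1.02, adjusted p = 0.0564) and without the 4 arrays with liver RNA (-1.46, adjusted p = 0.056), in a range of 6.34e-05 to 0.0564 over refits. The day 18 Thrsp call was lost without replicate 1 or 3 of ankle day 18 (differences from -1.97 to -1.76, adjusted p from 0.0616 to 0.125). Gpd1, the glycerol phosphate dehydrogenase, fell by 0.56 ± 0.12 at day 7 (adjusted p = 0.00885) and Lpin1, a phosphatidate phosphatase, by 0.61 ± 0.13 (0.00903), between means of 6.77 and 6.17 that both lay below background. The Gpd1 call was lost once the beta-actin difference was a covariate (-0.55, adjusted p = 0.0645), with quantile normalization anew (-0.48, adjusted p = 0.0721) and without the 4 arrays with liver RNA (-0.51, adjusted p = 0.0629), in a range of 0.00113 to 0.0721 over refits. The Lpin1 call was lost once the beta-actin difference was a covariate (-0.47, adjusted p = 0.127), in a range of 0.000702 to 0.127 over refits. At day 12 the count was 1 without replicate 1 or 3 of ankle day 0, or replicate 1, 2 or 3 of ankle day 12. At day 18 it was 0 without replicate 1 or 3 of ankle day 18, and 1 without replicate 3 of ankle day 0, or replicate 2 of ankle day 18.

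In fatty acid uptake and activation the called genes were higher. At day 7 these were 2 of 9 measured, where 3.09% of all genes were called higher. Fabp5, a fatty acid carrier of skin and macrophages, rose by 0.96 ± 0.14, or 1.94-fold (adjusted p = 0.000329), and Acsl4, an acyl-CoA synthetase, by 1.44 ± 0.33 (0.0123). The Acsl4 means at days 0 and 7, 3.99 and 5.43, both lay below background, and its call was lost without replicate 3 of ankle day 0, or replicate 3 of ankle day 7 (differences from 1.2 to 1.29, adjusted p from 0.0501 to 0.052), and also once the beta-actin difference was a covariate (1.54, adjusted p = 0.0534) and with a floor at the 20th percentile (1.02, adjusted p = 0.0641), in a range of 0.000128 to 0.0641 over refits. Fabp5 was higher at day 12 (0.86 ± 0.15, adjusted p = 0.0029) and day 18 (0.73 ± 0.15, 0.0145), when 1.87% and 1.13% of all genes were. These later Fabp5 calls were lost once the beta-actin difference was a covariate (0.64 and 0.61, adjusted p = 0.124 and 0.0772), in ranges of 4.09e-06 to 0.124 and 0.000259 to 0.125 over refits. The day 7 count was 1 without replicate 3 of ankle day 0, or replicate 3 of ankle day 7. At day 12 the count of 2 was 1 without replicate 2 or 3 of ankle day 12. At day 18 the count of 1 was 0 without replicate 3 of ankle day 18, and 2 without replicate 2 of ankle day 0.

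Of 7 other secreted factors, Angptl4, an inhibitor of lipoprotein lipase, was the 1 called. It rose by 1.73 ± 0.27, or 3.33-fold, at day 7 (adjusted p = 0.0007), by 1.51 ± 0.29 at day 12 (0.00627) and by 1.22 ± 0.29 at day 18 (0.0371). With the mean of its probe sets the rise was 0.73 at day 7 (adjusted p from 1.9e-06 to 0.0173 over refits) and 0.60 at day 12. The day 12 call was lost once the beta-actin difference was a covariate (1.14, adjusted p = 0.187), in a range of 2.08e-06 to 0.187 over refits. The day 18 call was lost without replicate 3 or 4 of ankle day 0, or replicate 1, 2 or 3 of ankle day 18 (differences from 1.01 to 1.23, adjusted p from 0.114 to 0.159), and also once the beta-actin difference was a covariate (1.0, adjusted p = 0.169), with a floor at the 20th percentile (1.22, adjusted p = 0.0702), with the mean of all probe sets (0.48, adjusted p = 0.0602) and with median centring (1.21, adjusted p = 0.0554), in a range of 1.03e-05 to 0.169 over refits. Of 8 measured genes of adipokine and insulin reception, among them the insulin receptor substrates Irs1 and Irs2, which are no receptors, Cdh13, which binds adiponectin, was the 1 called, lower at day 7 (-1.91 ± 0.24, adjusted p = 6.52e-05), day 12 (-1.67 ± 0.25, 0.000914) and day 18 (-1.47 ± 0.25, 0.00346). Its means at days 7 and 12, 6.57 and 6.81, lay below background. At day 12 the count in this list was 2 without replicate 2 of ankle day 0. The adiponectin receptor Adipor2 differed by -0.42 ± 0.16 at day 7 (adjusted p = 0.149).

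Of 14 adipogenic transcription factors, 2 were called lower at day 7, Klf5 (-1.28 ± 0.18, adjusted p = 0.000235) and Srebf1, a regulator of lipogenic enzymes (-0.66 ± 0.17, 0.0253). At that day 3.64% of all genes were called lower. Klf5 was also lower at day 12 (-1.22 ± 0.20, adjusted p = 0.00118) and day 18 (-1.37 ± 0.20, 0.000447). Its mean was 6.90 at day 0 and below background at each of these days, and the day 12 call was lost once the beta-actin difference was a covariate (-1.07, adjusted p = 0.0521), in a range of 1.63e-06 to 0.0521 over refits. The Srebf1 call at day 7 was lost without replicate 1, 2 or 4 of ankle day 0, or replicate 3 or 4 of ankle day 7 (differences from -0.67 to -0.60, adjusted p from 0.052 to 0.0774), and also once the beta-actin difference was a covariate (-0.66, adjusted p = 0.118) and without the 4 arrays with liver RNA (-0.62, adjusted p = 0.0506), in a range of 0.000816 to 0.118 over refits. At day 12 the count of 2 was 1 without replicate 2 or 3 of ankle day 12. Of 8 brown fat genes limma called 0 at days 7, 12 and 18, though 1 was called higher at day 18 without replicate 1 of ankle day 0. Ucp1, the uncoupling protein of brown fat, had means of 4.47, 4.34, 4.34 and 4.44 at days 0, 7, 12 and 18, below background. Of 6 measured adipocyte markers outside the 10 genes, 3 were called lower at day 7, 3 at day 12 and 4 at day 18. The shares of all genes called lower were 3.64%, 1.37% and 0.885%. All 6 of these markers (Gpd1, Thrsp, Pck1, Cidec, Ces1d and Cebpa) are also in the lists above. The day 12 count was 0 without replicate 1 or 3 of ankle day 0, or replicate 2 or 3 of ankle day 12, and the day 18 count 1 without replicate 1 or 3 of ankle day 18.

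**Figure D3:**
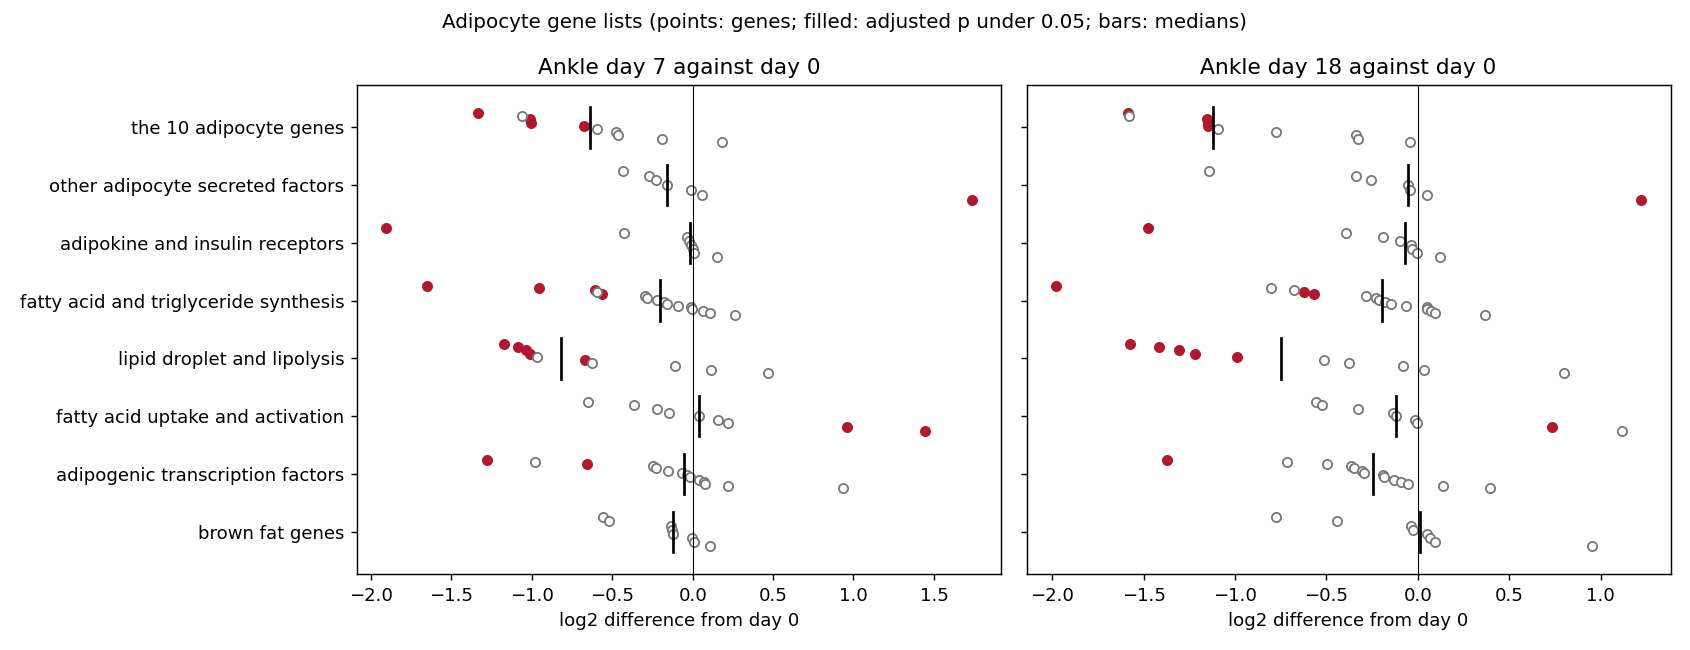
Difference from day 0 in ankle (horizontal axis, log2) at day 7 (left) and day 18 (right) for 8 lists (rows), where points are genes, filled ones had an adjusted p under 0.05 and bars are medians. The medians of the 10 adipocyte genes (-0.64 and -1.12) and of the lipid droplet list (-0.82 and -0.75) lie farthest left, and the filled point right of 0 among secreted factors is Angptl4.

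The 10 genes varied together in part. Over the 19 ankle arrays their 45 pairs had a median Pearson r of 0.52 (-0.21 to 0.93), the highest being Retn with Lipe (0.93). With each day's mean subtracted the median was 0.24 (-0.43 to 0.82), and 32 pairs were above 0. Within days Scd1 with Pparg had r = 0.82, Fabp4 with Lpl 0.81, Adipoq with Lpl 0.75 and Retn with Lipe 0.75. The genes of an array share its RNA preparation and tissue makeup.

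Likeness to Retn and Adipoq was ranked over the 3635 genes above background in at least 1 ankle group. The 10 adipocyte genes were left out of the ranking, though Lipe had r = 0.93 with Retn and Lpl 0.88 with Adipoq. Of the other genes, those most like Retn over the 19 arrays were Sncg (0.93), S100b (0.91), Folr2 (0.91), Fxyd1 (0.91), Fcna (0.89), Gpd1 (0.89), G0s2 (0.88) and Fasn (0.87), by Pearson r. Those most like Adipoq were 1810009A15Rik (0.85), Fdx1 (0.85), Cyp4b1 (0.85), Fmc1 (0.83), Mgst1 (0.82), Vti1b (0.81), Hsd17b11 (0.81) and Sod1 (0.81). With each day's mean subtracted, r with Retn was lower for all 8, at Sncg 0.60, S100b 0.61, Folr2 0.29, Fxyd1 0.49, Fcna 0.31, Gpd1 0.33, G0s2 0.58 and Fasn 0.63. For the 8 genes of Adipoq it was 0.73 to 0.87. These sets of 8 genes share no gene.

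Between tissues, all 10 genes were higher in day 0 ankle than in day 0 blood (4 arrays against 3), where 22.4% of all genes were. For 9 of them, all but Cidea, the arrays did not overlap, against 22.9% of all genes. Adipoq in blood stood at 3.61, 3.90 and 3.80, and ankle was at least 11.4-fold higher (6.59 ± 0.33, adjusted p = 2.21e-16). Lpl was at least 3.97-fold higher (4.10 ± 0.27, adjusted p = 2.03e-13), Retn at least 2.02-fold (2.29 ± 0.16, 8.9e-13), Lep 2.16-fold (1.11 ± 0.18, 5.62e-06) and Scd1 2.49-fold (1.32 ± 0.25, 8.68e-05). With the mean of its probe sets Scd1 was not called (0.35, adjusted p = 0.318, 1.61e-05 to 0.318 over refits). A second Lep probe set differed by 0.03 (adjusted p = 0.877), so the Lep fold rests on the main probe set. Of the other Scd1 probe sets, 1 was higher in ankle (1.3, adjusted p = 0.0134) and 1 lower (-1.58, 0.000468). Cidea (0.39 ± 0.13, adjusted p = 0.0141) lost its call without replicate 3 of ankle day 0 (0.29, adjusted p = 0.0789) or replicate 3 of blood day 0 (0.31, adjusted p = 0.102), in a range of 0.000374 to 0.102. The ankle descriptions give extraction with SDS and urea, those of fluid and blood Trizol, so tissue and extraction cannot be told apart. All ankle descriptions, but only those of 2 fluid arrays and 1 blood array, also name 2 rounds of amplification.

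Synovial fluid cells had lower signal than ankle for 9 of the 10 genes, as the mean of the differences at days 3, 7, 12 and 18, where 19.4% of all genes were lower. For Retn (5.57 in fluid and 6.69 in ankle), Slc2a4 (6.14 and 6.54) and Cidea (4.57 and 4.81) both means over these days lay below background. With the beta-actin covariate 4 of these 9 calls remained (Adipoq, Retn, Fabp4 and Scd1), and those of Lep, Lpl, Lipe, Slc2a4 and Cidea were lost (adjusted p = 0.109, 0.0632, 0.109, 0.0682 and 0.317). The log2 difference of the beta-actin probe sets was 1.59 to 3.61 in fluid and 3.25 to 4.25 in ankle at these days. For 4 of the 10 no fluid array reached an ankle array, against 2.64% of all genes. Adipoq, at 3.87 to 4.42 in fluid, was at least 7.81-fold lower (-5.78 ± 0.18, adjusted p = 6.14e-20). Scd1 was 4.36-fold lower (-2.13 ± 0.14, adjusted p = 6.62e-13, and -1.31 with the mean of its probe sets) and Fabp4 at least 1.17-fold (-1.67 ± 0.13, 1.28e-11). Lpl stood at 6.80 to 8.20 in fluid, 4.02 to 5.13 in blood and 7.23 to 9.52 in ankle, and was 1.49-fold lower in fluid than in ankle (-0.58 ± 0.14, adjusted p = 0.000973). Pparg was not called (-0.03 ± 0.16, adjusted p = 0.891). Most fluid samples were taken in the course of dissecting the ankle, the first replicates of days 3 and 7 by washing out, and day 7 replicate 4 and day 18 replicate 3 had 2 rounds of amplification.

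**Figure D4:**
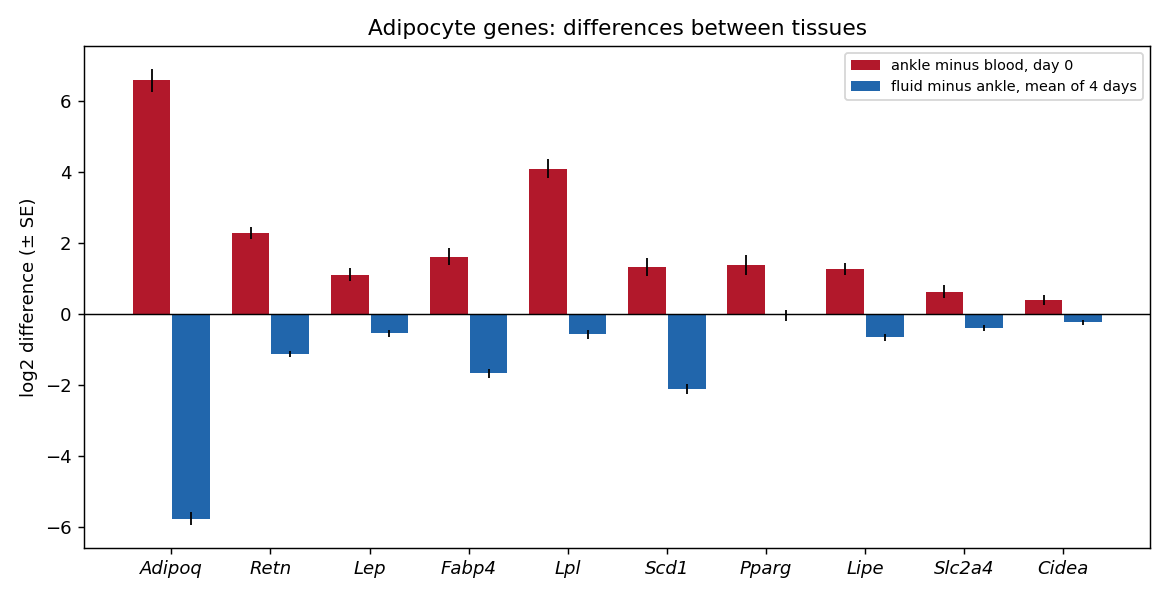
Log2 difference (vertical axis, bars from 0 with standard errors from limma) of each adipocyte gene (horizontal axis) for ankle minus blood at day 0 (red) and fluid minus ankle as the mean of 4 days (blue). The Adipoq bars, 6.59 and -5.78, are the longest, and the blue Pparg bar is near 0 at -0.03.

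Within the fluid, Scd1 rose after day 3. The 3 comparisons with fluid day 3 were added after the values were seen, and they share its 3 arrays. Scd1 stood at 6.95, 7.19 and 7.50 at day 3, at 9.23, 8.89, 8.79 and 8.81 at day 7, at 9.31, 8.34 and 8.97 at day 12, and at 9.85, 9.42 and 9.89 at day 18. Every later array was above every day 3 array. The rise was 1.72 ± 0.23 at day 7 (3.29-fold, adjusted p = 0.000492), 1.66 ± 0.25 at day 12 (3.16-fold, 0.00106) and 2.50 ± 0.25 at day 18 (5.67-fold, 2.87e-05), when 2.17%, 2.42% and 2.28% of all genes were called higher. Scd1 was called in every refit, at 0.98 to 1.88, 1.24 to 1.93 and 1.6 to 2.65. Its second probe set differed by 1.67, 1.46 and 2.25 (adjusted p = 0.0172, 0.06 and 0.00297) and the other by -0.43, 0.59 and 0.04 (0.854, 0.581 and 0.98). Ankle means of Scd1 were 11.26 at day 3 and 10.57 at day 18, and blood arrays lay at 9.81 to 10.84.

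Pparg was the other gene called within the fluid, at levels below background. It stood at 4.74, 5.46 and 4.95 at day 3, at 3.91, 4.24, 3.86 and 3.69 at day 7, at 3.94, 4.61 and 3.94 at day 12, and at 3.89, 4.19 and 3.79 at day 18, with every later array below every day 3 array. Pparg fell by 1.13 ± 0.20 at day 7 (adjusted p = 0.00385), by 0.89 ± 0.21 at day 12 (0.0343) and by 1.1 ± 0.21 at day 18 (0.00804), when 0.388%, 0.279% and 0.909% of all genes were called lower. The day 12 call was lost without replicate 2 or 3 of fluid day 3, or replicate 1 or 3 of fluid day 12 (differences from -0.94 to -0.69, adjusted p from 0.0614 to 0.2), in a range of 5.27e-05 to 0.2 over refits. The day 18 call was lost without replicate 2 of fluid day 3 (-0.89, adjusted p = 0.0508), in a range of 8.65e-06 to 0.0508. In fluid the macrophage markers summed to 19057 to 33552 at day 3 and 22912 to 29169 at day 18, and the neutrophil markers to 12881 to 16752 and 16630 to 19334. Their part in these changes was not tested.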

How the data were processed

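Gene expression was measured on Affymetrix mouse arrays, 1 for each of 49 samples. The deposited values are linear intensity values made by the authors with RMA, per the submitters' processing notes. Array medians were 57.7 to 64.1 and replicates correlated at r = 0.941 to 0.995. Of 12488 probe sets, the platform annotation gave 10833 a single symbol, 396 several and 1259 none (or controls), leaving 8251 genes.

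Log2 intensities were modelled in limma 3.58.1 (R 4.3.3) by lmFit and eBayes with trend, a mean for each tissue and day, and Benjamini-Hochberg adjustment. Ankle comparisons used the 19 ankle arrays, tissue comparisons all arrays of both tissues, fluid comparisons the 13 fluid arrays. The procedure was tested on simulated data. A fold is given where both means exceeded 6.85, and otherwise a bound with each dimmer array at the higher of its value and 6.85. The number of arrays limits the precision.

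Members and lists were chosen with earlier results of these data known. Named were the 10 genes, up to 4 genes of each list with the smallest p at ankle day 7, and the 8 other genes most like each of Adipoq and Retn. Pnpla2 was named after its values were seen. Refits changed the normalization, centring, filter, floor, probe set rule, array weights, moderation, arrays fitted, replicate block or beta-actin covariate, or left out arrays. The protocol field names Trizol for ankle too. Ankle replicate 2 of day 0 has a description that opens with D02 where those of the other day 0 ankle arrays open with their titles, but its title, its time label and the same description's text say day 0. Without it the count of called genes was 3 at day 7, 2 at day 12 and 3 at day 18.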

Additional observations from a re-analysis of the deposited data

Results flagged for a closer look

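Among 30 groups of 4 arrays (10 genes, each in 3 groups), 0 held an array that stood apart by Dixon's criterion. For Retn and Scd1, all arrays of 1 tissue lay above that tissue's mean at the earlier day while all arrays of another lay below theirs, and these differences between tissues were not tested. Blood Retn was 0.12 above day 0 at day 12 and 0.25 above it at day 18, where ankle Retn differed by -1.42 and -1.59. Blood Scd1 was 0.13 above day 0 at day 18, where ankle Scd1 differed by -1.15. From day 3, ankle Scd1 differed by -0.56 at day 7, -0.57 at day 12 and -0.69 at day 18, where fluid Scd1 differed by 1.72, 1.66 and 2.50.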

How the results depend on the processing

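Over 2202 refits of 110 differences of the 10 genes, 2105 kept their side of the threshold, 57 lost a call, 40 gained one and 0 calls turned direction. Differences that were not called could change sign. Adipoq, for one, ranged from -0.92 to 0.14 at ankle day 7 and from -1.21 to 0.05 at day 12. With array weights the count of called genes in ankle was 2 at day 7 (in place of 4), 7 at day 12 (in place of 2) and 8 at day 18 (in place of 4). Of the 7 at day 12, Fabp4 was called higher (0.60, adjusted p = 0.03) and the others lower. With all 49 arrays in 1 fit the count was 5 at day 12 and 7 at day 18, and with a floor at the 20th percentile 2 at day 18. Leaving out 1 array gave 2 to 5 at day 7, 1 to 3 at day 12 and 1 to 4 at day 18. The replicate number as a block gave 4 at day 12 and 7 at day 18, where no label says that a number marks shared animals. Over 41 same-numbered ankle pairs the deviations correlated at -0.18 to 0.73 (median 0.20), 26 of them over 0.1. The lowest pair with day 0 was at 0.03 for day 7, 0.06 for day 12 and -0.07 for day 18, so the block was not taken as a pairing. Given the beta-actin covariate, 4 genes in place of 9 were called lower in fluid than in ankle. Leaving out 1 array gave 9 to 9 there and 9 to 10 for ankle against blood. Against fluid day 3, the count of 2 was 1 at each of days 7, 12 and 18 with the dimmest genes left out, when Pparg was no longer tested. At day 12 it was also 1 with quantile normalization anew, the floor, no intensity trend or all 49 arrays, 4 with array weights and 1 to 2 leaving out 1 array. At day 18 it was 1 to 2 leaving out 1 array. The cause of the other shifts was not tested. The liver and beta-actin settings came from an earlier analysis of these data. Signal over background limits, in ankle, Pparg and Cidea everywhere, Slc2a4 after day 0, Retn from day 7 on and Lipe at day 18, and among list genes Acsl4, Plin4, Cidec, Lpin1, Klf5 and Cdh13. Ankle means of Fabp4 lay only just above the background level.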
